A study of Mus musculus with 2 samples.

Results

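The cells described here were taken from the mouse hippocampus by a marker rule for CA3-like pyramidal neurons, the excitatory cells of hippocampal field CA3. A cell was a member if it had a value of at least 2 for Grik4, a kainate receptor subunit, and of at least 2 for at least 2 of the 6 genes Iyd, Cpne4, Nectin3, Rnf182, Trps1 and Elavl2. It also had to stay below 2 for the CA1 marker Fibcd1 and the dentate granule marker Prox1, below 3 for Mef2c, and at no more than 2 for the sum of the inhibitory markers Gad1 and Gad2. The rule took 1277 of 15930 cells, 591 of 7094 from wild-type mice and 686 of 8836 from knock-in mice. In CA3, pyramidal neurons receive the large mossy fibre terminals of dentate granule cells and excite each other through recurrent branches, and their axons, the Schaffer collaterals, drive CA1. High-affinity kainate receptors, built in part from the Grik4 subunit, act at the mossy fibre synapse, and Nectin3 helps to hold the terminal and the dendrite together there.

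The study compared homozygous Pigv341E knock-in mice with wild-type controls of the same strain, C57Bl.6/J. Pigv encodes a mannosyltransferase of the synthesis of the GPI anchor, a glycolipid that tethers many proteins to the outer cell surface. Hippocampi of 4 mice per genotype, 8 in all from each, were dissociated mechanically at 4 °C, and the cells of each genotype were pooled into 1 droplet library. Both libraries were sequenced on the same lane. Age and sex of the mice are not given in the sources used here. With 1 library per genotype, a difference between genotypes, between pools of mice and between library preparations cannot be told apart, and no test between genotypes was possible. Intervals below are exact (Clopper-Pearson) at 95% and cover counting error only.

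Values were the authors' depth-corrected whole numbers, so the raw depth of a cell was not known. The total per cell had a median of 9837 in wild-type and 9855 in knock-in members, against 8631 and 9608 over all cells of the libraries. A gene's level is its sum over a set of cells per 10000 of the sum of all genes, and log2 ratios were taken between levels after adding 0.1. A total of 28 barcodes occurred in both libraries, and 12 members carried one of them, but no such barcode belonged to members of both. A doublet caller marked 22 of the 1277 members, 7 wild-type and 15 knock-in. Over all cells it marked 270, of which 61 (0.860%) were wild-type and 209 (2.37%) knock-in. The median number of genes above 0 per cell was 3982 in wild-type and 4109.5 in knock-in members. Over all cells of the libraries it was 3122 and 3736. A share of cells cannot separate fewer cells of a type from lower recovery of that type during dissociation.

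The label held for about as many members as it failed. When all cells were grouped into 40 clusters, 627 members (49.1% of 1277) lay in a single cluster, called the core below, and 650 lay elsewhere. Of the 656 cells of that cluster, 627 (95.6%) were members. It carried 17 of the 19 fixed CA3 markers, 10 of them outside the rule, among them Spock1, Homer3, Socs2, Kcnq5 and Bok. In the wild-type library 296 members and in the knock-in library 331 members were in the core.

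**Figure D1:**
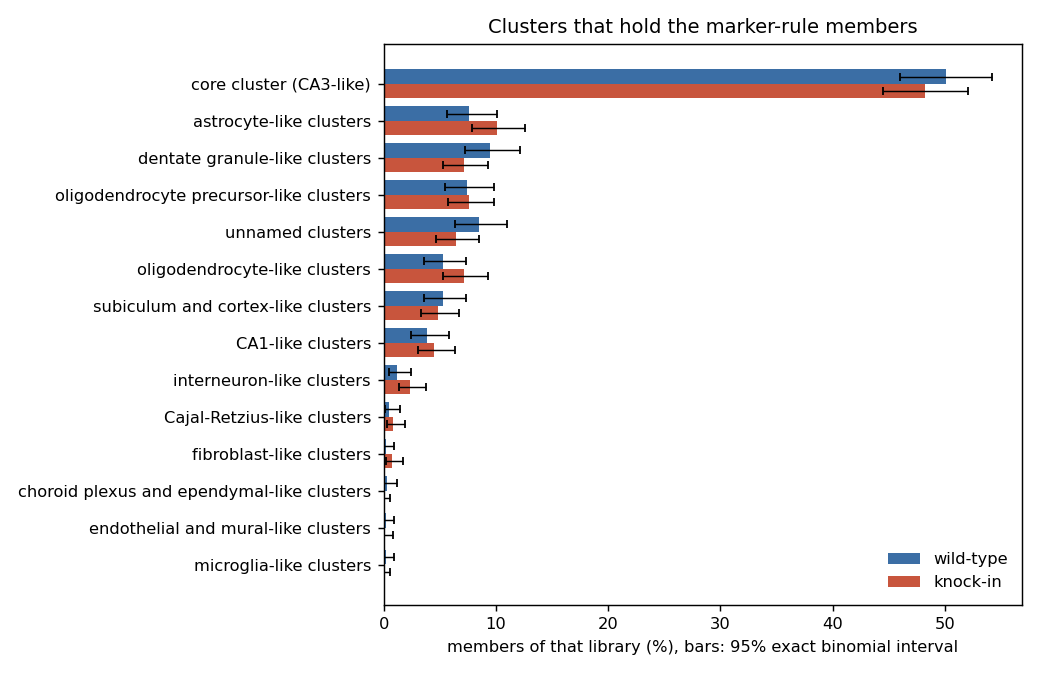
Percent of the members of each library (x axis) found in each kind of cluster (y axis), with exact 95% binomial intervals. The core cluster holds 50.1% of wild-type and 48.3% of knock-in members, and no other kind of cluster reaches 11% in either library.

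The other members were spread over glia and other neurons. Astrocyte-like clusters held 114 members (8.93%), dentate granule-like clusters 105 (8.22%), oligodendrocyte precursor-like clusters 96 (7.52%), oligodendrocyte-like clusters 80 (6.26%), subiculum and cortex-like clusters 64 (5.01%) and CA1-like clusters 54 (4.23%). A small unnamed cluster was nearly all members, 42 of its 44 cells. It had 13 CA3 markers and 4 hilar mossy cell markers and was led by Gm32647, Trpc7, Cpne9 and Crispld1. Mossy cells are the excitatory neurons of the dentate hilus, and the fixed rule for names left this cluster without one.

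The criteria that admitted the cells outside the core were the weakest ones. Of the 486 members with exactly 2 of the 6 other markers, 7 (1.44%, interval 0.581 to 2.95%) were in the core. Of the 529 members with 5 or 6, 483 (91.3%, interval 88.6 to 93.6%) were in the core. Just outside the rule, 1126 cells had exactly 1 marker and 3 of them were in the core cluster. Of the 232 members with Grik4 at 2, the threshold, 1 (0.431%) was in the core, while 296 cells just below it, at 1, included 6 core cells (2.03%). Of the 789 members with Grik4 at 6 or more, 611 (77.4%) were in the core. These values are those of the rule itself and describe how it worked.

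**Figure D2:**
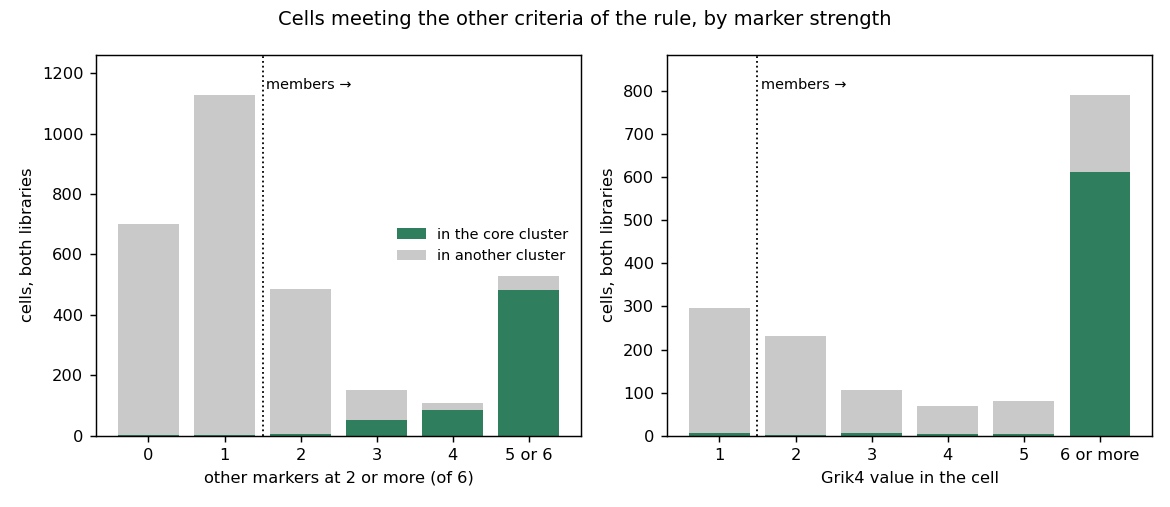
Number of cells of both libraries (y axis) that met all other criteria, by how many of the 6 other markers reached 2 (left) and by the Grik4 value (right), split by cluster; cells right of the dotted line are members. Green, the core cluster, is 7 of 486 cells at 2 markers and 483 of 529 cells at 5 or 6.

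Trps1, a GATA-type repressor, was the marker most often met outside neurons. In astrocyte-like clusters 100% of members had it at 2 or more, and in oligodendrocyte-like clusters 95% did. Cpne4, a calcium-binding copine, was met by 93.3% of members in dentate granule-like clusters, with Nectin3 met by 3.81% of them. In the core, Cpne4 was met by 99.4%, Elavl2, an RNA-binding neuronal protein, by 97.9%, Rnf182 by 92.7%, Nectin3 by 89.0% and Trps1 by 87.6%. Iyd, an iodotyrosine deiodinase used as a CA3 marker, was met by 4.78% of core members and decided few memberships.

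Grik4 separated the parts of the rule by amount. In wild-type core members its value ran from 2 to 33 with a median of 16, and in knock-in core members from 3 to 36 with a median of 17. Outside the core the medians were 4 and 3. The 2 libraries overlapped over nearly the whole range.

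Markers of astrocytes, oligodendrocytes and interneurons followed the same division, but not all other lists did. The 11 subiculum and cortex markers summed to 37.6 and 37.6 per 10000 (wild-type, then knock-in) in core members and to 22.7 and 20.7 outside. Hs3st4, a gene on that list, alone stood at 33.8 and 34.4 in the core. The 9 CA1 markers summed to 26.6 and 27.7 in the core and to 29.3 and 27.7 outside. The summed level of 9 astrocyte markers was 3.77 and 3.34 per 10000 (wild-type, then knock-in) in core members and 21.3 and 26.3 in members outside it. Most of the core sum came from Slc1a2, the glutamate transporter, at 3.34 and 2.74, whereas Slc1a3, Aqp4, Gja1 and Gfap were each at or below 0.184. For 9 oligodendrocyte markers the core sums were 0.985 and 1.00, and those outside were 11.6 and 15.2. For 10 interneuron markers they were 0.371 and 0.624 in the core, with Lhx6 at 0, and 14.5 and 14.7 outside. Gad1 and Gad2 are part of that list and were limited by the rule. Interneuron-like clusters held 23 members (1.80%), so the interneuron sums are not a measure of interneuron number. In the full granule-like set described below, also limited for Gad1 and Gad2, they were 19.9 and 17.5. At least 2 astrocyte markers at 2 or more were found in 0 of 296 wild-type core members (interval 0 to 1.24%) and in 3 of 331 knock-in core members, against 88 of 295 and 127 of 355 members outside. None of the 627 core members had at least 2 hilar mossy cell markers.

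The 12 CA3 markers that the rule did not use summed to 60.6 and 70.0 per 10000 in core members and to 12.6 and 11.6 in members outside. Spock1, a proteoglycan, was the clearest. Every core member had it, from 2 to 35 with a median of 14.5 in wild-type and from 4 to 40 with a median of 17 in knock-in cells. Outside the core 49.5% of wild-type and 49.0% of knock-in members had any. These lists and the clusters come from the same cells and genes, so the agreement is a description.

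Excitatory identity was present in the core. Slc17a7, the vesicular glutamate transporter of the forebrain, was above 0 in 275 of 296 wild-type core members (92.9%) and 324 of 331 knock-in core members (97.9%), at levels of 2.71 and 2.79. Camk2a, the synaptic calcium-dependent kinase, stood at 13.8 and 13.3. Because the members are mixed, results below are given for the core, for all members or for both, as named. Cells outside the core are not described as CA3 neurons.

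Both sets were set beside 2 sets of neighbouring neurons chosen by marker rules of the same form. A CA1-like set needed Fibcd1 and CA1 markers and had 195 wild-type and 244 knock-in cells, and a dentate granule-like set needed Prox1 and granule markers and had 340 and 309. The granule-like set was mixed, with an oligodendrocyte marker sum of 35.4 and 43.8 per 10000. Each set was therefore also cut to its largest cluster, which left 149 and 190 CA1-like and 120 and 53 granule-like cells. This cut was chosen after seeing the data.

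Against both full sets, 57 of 1813 genes (3.14%) were at least 1 higher on the log2 scale in all members in all 4 comparisons, and 4 of 1260 (0.317%) were at least 1 lower. Core members against the largest clusters gave 90 of 1716 genes (5.24%) and 44 of 1293 (3.4%). Genes of the selection rules were left out. For the higher direction a gene needed a level of at least 1 per 10000 in the members of both libraries. For the lower direction it needed that level in both neighbouring sets of both libraries. The higher and lower shares thus have unlike bases. All members led with Mgat4c, Fstl5, Socs2 and Hs3st4 but also with Lhfpl3, Nxph1, Sox6 and Megf11. Those last 4 were higher outside the core: Lhfpl3, a marker of oligodendrocyte precursors, stood at 4.23 and 5.19 per 10000 in all members and at 8.66 and 10.2 in those outside the core. The core list did not name them among its first 25 genes.

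In core members the leading genes were Spock1, Socs2, Mgat4c, Efr3b, Fstl5 and Hs3st4. Spock1 stood at 15.3 and 17.8 per 10000 in the core, at 0.0475 and 0.0477 in CA1-like cells and at 0.127 and 0.151 in granule-like cells. Socs2, a suppressor of cytokine signalling, stood at 2.48 and 3.30 against no more than 0.053 in either neighbour. Mgat4c, a glycan-branching transferase homologue, stood at 29.4 and 35.9 against 1.49 and 1.08 in CA1-like and 0.178 and 0.151 in granule-like cells. Hs3st4, a heparan sulfate sulfotransferase, is also on the subiculum and cortex list. It stood at 33.8 and 34.4 against 4.27 and 3.30 in CA1-like and 1.70 and 2.08 in granule-like cells. These genes were listed for that difference, so the values are a description.

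Several of the other genes on the core list guide axons, signal or act on the matrix. Slit2, a repellent guidance ligand, stood at 5.71 and 5.41 per 10000 against at most 0.756 in the neighbours. Kit, the receptor of stem cell factor, stood at 1.95 and 2.37 against at most 0.353. Pde4d, a cyclic AMP phosphodiesterase, stood at 28 and 24 against 6.17 and 5.79 in CA1-like cells and 3.63 and 3.55 in granule-like cells. Sulf2 and Adamts9, an extracellular sulfatase and a matrix protease, were also on the list, as was the transcription factor Sox5. Sox5 was not lower outside the core, at 4.86 and 4.49 against 3.60 and 4.00 in the core.

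Genes that were low in core members included Ndst4, another heparan sulfate modifying enzyme, at 0.0858 and 0.0642 per 10000 against 3.91 and 3.92 in CA1-like and 2.72 and 2.12 in granule-like cells. Bcl11b, a zinc finger transcription factor, stood at 0.875 and 0.379 against 5.73 and 5.18 in CA1-like cells. Nrg1, the ErbB receptor ligand neuregulin, stood at 0.710 and 0.921 against 10.7 and 9.26 in CA1-like and 4.28 and 6.39 in granule-like cells. Kcnh7, an Erg-type potassium channel read from the fixed channel list, stood at 0.45 and 0.34 in the core and at 27.2 and 21.1 in CA1-like cells.

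**Figure D3:**
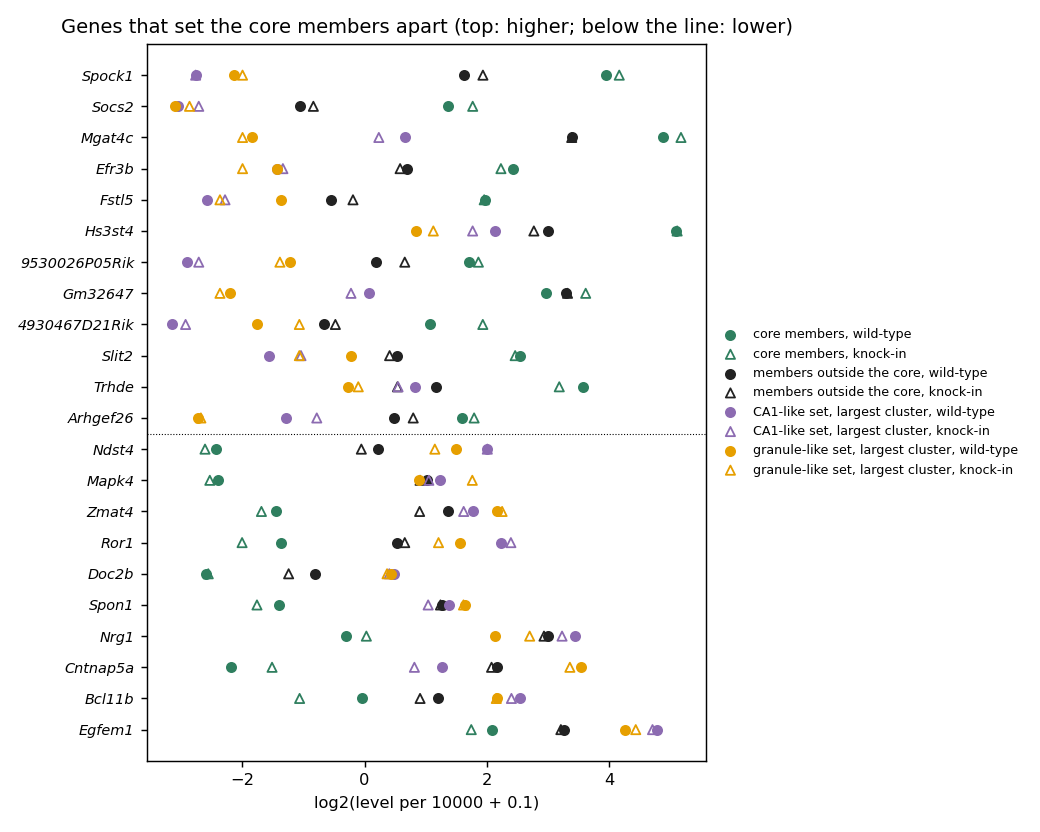
Level of each gene as log2 of the level per 10000 plus 0.1 (x axis) for the 12 leading higher and the 10 leading lower genes of core members (y axis), by set and library. For Spock1 the core stands at 15.3 and 17.8 per 10000 and both neighbouring sets stand at or below 0.151, with the members outside the core between them.

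Of the glutamate receptor genes named here beside the rule's own Grik4, 1 was higher in the core than in both neighbours. That gene, Neto1, an auxiliary subunit of kainate receptors, stood at 5.90 and 7.05 per 10000 in the core, at 0.26 and 0.33 in CA1-like and at 1.93 and 1.81 in granule-like cells. It was above 0 in 88.9% of wild-type and 94.9% of knock-in core members. Grik2, the principal kainate subunit, did not single the core out, at 9.04 and 9.75 against 5.38 and 5.50 in CA1-like and 14.3 and 12.7 in granule-like cells. The AMPA receptor gene Gria1 was lower in the core, at 21.5 and 20.1 against 32.6 and 32.1 in CA1-like cells, and so was the NMDA receptor gene Grin2a, at 19.8 and 19.0 against 38.5 and 36.3.

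Adhesion genes on the mossy fibre list had no common order between the core and granule-like cells. Nectin3 was selected by the rule. Its partner Nectin1 stood at 0.81 and 0.69 per 10000 in the core and at 0.42 and 0.38 in granule-like cells. Cdh9, a cadherin of this synapse, stood at 5.01 and 6.64 in the core and 7.16 and 8.62 in granule-like cells, against 0.21 and 0.29 in CA1-like cells. Kirrel3 and Lrrtm4, adhesion proteins as well, were higher in granule-like cells than in the core: Kirrel3 stood at 1.28 and 2.04 in the core against 19.4 and 19.3 in granule-like cells, and Lrrtm4 at 8.09 and 6.98 against 77.6 and 66.6. Tenm3, a teneurin of the proximal CA1 wiring, stood at 0.46 and 0.78 in the core and 22.6 and 23.1 in CA1-like cells.

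Ion channel genes also differed by cell set. The M-current subunit Kcnq5 stood at 35.0 and 40.2 per 10000 in the core, 12.1 and 9.58 in CA1-like and 0.6 and 0.51 in granule-like cells. Kcnd2, the A-type channel, stood at 13.7 and 10.5 against 38.1 and 37.5 in CA1-like cells. The calcium channel genes Cacna1a and Cacna1c were higher in the core than in CA1-like cells, at 15 and 13.6 against 7.17 and 5.62 for Cacna1a and at 16.2 and 17.3 against 3.28 and 3.26 for Cacna1c. Each of these orders was the same in both libraries.

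Core members were not uniform. Malat1, a nuclear noncoding RNA, had the largest variance-to-mean ratio over wild-type core cells, with a cell value from 47 to 570 and a median of 213.5. It ran from 55 to 798 with a median of 299 in knock-in cells. Among protein-coding genes, Sgcd, a sarcoglycan, ran from 0 to 97 with a median of 2 in wild-type and from 0 to 66 with a median of 2 in knock-in cells. Gabrg3, a GABA-A receptor subunit, had a median of 0 and a highest value of 41 in wild-type and 33 in knock-in cells. Sgcd and Gabrg3 were thus low in most core cells and high in a few.

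The leading axis of variation, fitted on wild-type core cells only, ran from cells high in Trps1, Kcnc2, Dcc, Nectin3 and Cdh9 to cells high in Egfem1, Asic2, Dab1, Dock11 and Adcy1. Wild-type values that chose an axis are descriptions, and the knock-in cells were not used to fit it. In the knock-in cells, scored on that axis and split into their own terciles (low, middle and high parts of nearly equal numbers of cells), Trps1 stood at 4.18 per 10000 in the low tercile and 34.4 in the high tercile. Nectin3 stood at 5.04 and 12.3, and Cdh9 at 2.48 and 9.76. In the other direction, Egfem1, an EGF-domain protein, stood at 7.59 and 0.18, Dab1, the adaptor of reelin signalling, at 25.7 and 3.93, and Adcy1, an adenylyl cyclase, at 1.17 and 0.06. The score that made these terciles weights the same genes, so their separation in knock-in cells is a description.

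CA2 markers sat at the Egfem1 end. CA2 is the small field between CA3 and CA1. The 9 CA2 markers in the table summed to 4.27 per 10000 in the low tercile of wild-type cells, 0.356 in the middle and 0.233 in the high tercile. In knock-in cells the sums were 2.93, 0.528 and 0.220. All 29 wild-type and all 13 knock-in core cells with at least 2 CA2 markers at 2 or more were in the low tercile of their library.

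Such cells were 29 of 296 wild-type core members (9.80%, interval 6.66 to 13.8%) and 13 of 331 knock-in core members (3.93%, interval 2.11 to 6.62%). The CA2 markers differed among themselves. Ntf3, the neurotrophin-3 gene, was above 0 in 34 wild-type and 13 knock-in core cells and stood at 0.261 and 0.080 per 10000. Amigo2, a CA2 adhesion protein, was above 0 in 24 (8.11%) and 35 (10.6%), Necab2, a calcium-binding protein, in 87 (29.4%) and 106 (32.0%), and Rgs14, a regulator of G-protein signalling, in 43 (14.5%) and 46 (13.9%). Ntf3 was lower in the knock-in library, and the shares with Amigo2, Necab2 and Rgs14 had overlapping intervals.

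The second axis ran from Cadm2, Epha5, Magi2 and Cacnb4 to Galntl6, Kirrel3, Tenm4, Ptprg and Ldb2. In knock-in cells Epha5, an ephrin receptor, stood at 3.10 per 10000 in the low and 19.8 in the high tercile, and Galntl6, a glycosyltransferase family member, at 9.79 and 1.92. The libraries were placed differently along it. With cut points that divide the wild-type cells into terciles, 178 of 331 knock-in cells (53.8%, interval 48.2 to 59.2%) fell in the low tercile and 42 (12.7%, interval 9.30 to 16.8%) in the high tercile. When the axis was fitted on knock-in cells instead, 59.5% of wild-type cells (interval 53.6 to 65.1%) fell in the high and 17.2% in the low knock-in tercile. The loadings of these axes, each fitted on 1 library, had a correlation of 0.746 over genes. The direction of the difference was the same in both fits. Core cells with at least 2 CA2 markers lay mostly at the high end of the second axis, with 24 of 29 wild-type and 11 of 13 knock-in cells in the high tercile of their library. Their part in the difference was not tested. On the first axis 34.7% and 18.4% of knock-in cells fell in the low and high wild-type terciles, but fitted on knock-in cells it placed 32.4% and 36.5% of wild-type cells there. The middle wild-type tercile held 33.5% of knock-in cells on the second axis and 46.8% on the first. Scores of cells that did not define an axis are drawn towards its middle. How much of the placement on either axis comes from that was not tested.

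**Figure D4:**
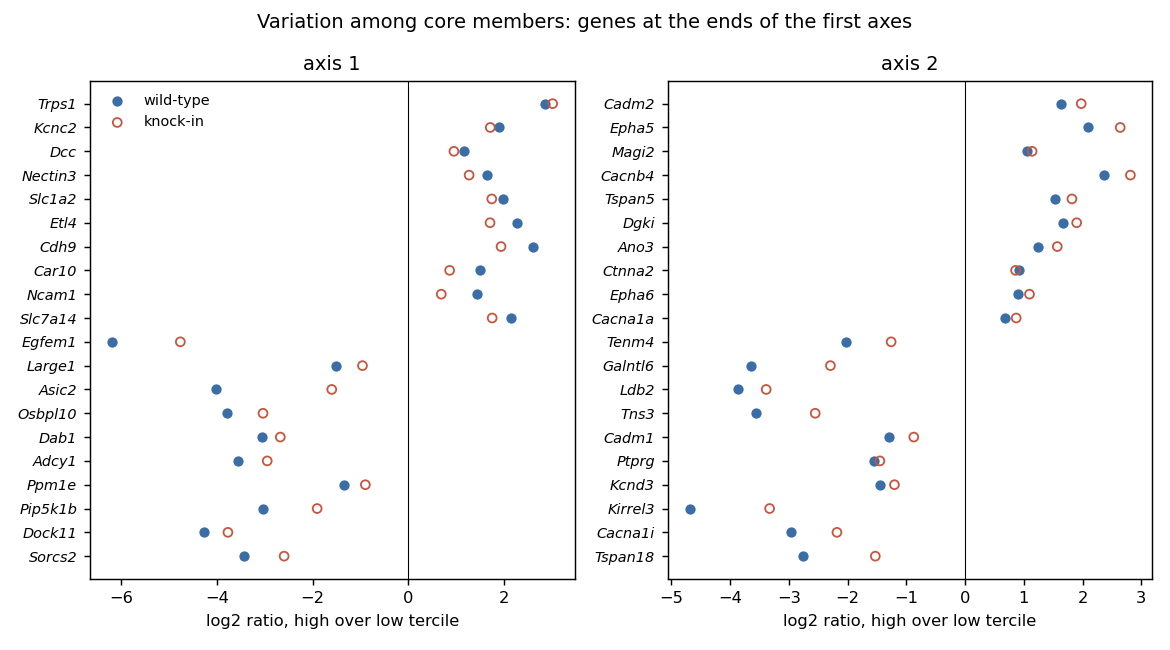
Log2 ratio of the level in the high over the low tercile of core cells (x axis) for the genes at each end of the first 2 axes (y axis), with wild-type cells, which defined the axes, filled and knock-in cells open. Trps1 reaches 2.85 in wild-type and 3.01 in knock-in cells on the first axis.

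Members made up 8.33% of the wild-type library (interval 7.70 to 9.0%) and 7.76% of the knock-in library (interval 7.21 to 8.34%). Core members made up 4.17% (interval 3.72 to 4.66%) and 3.75% (interval 3.36 to 4.16%). Both pairs of intervals overlapped.

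Pigv, the edited gene, was near the limit of detection. It was above 0 in 23 of 591 wild-type members (3.89%, interval 2.48 to 5.78%) and 45 of 686 knock-in members (6.56%, interval 4.83 to 8.68%), and in the core in 15 of 296 and 21 of 331. Its level was 0.0413 and 0.0756 per 10000 in members and 0.0515 and 0.0642 in the core. The gene lies at chr4:133660387-133672647 on the minus strand of GRCm38. A level of transcript does not show a change of 1 amino acid, so Pigv gives no check of the labels.

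Few genes differed by size between genotypes. Among all members 8 of 2065 genes (0.387%) were at least 1 higher on the log2 scale in the knock-in library and 2 (0.0969%) at least 1 lower, with a level of at least 1 per 10000 and at least 10% of cells above 0 in a library. In the core they were 18 of 1986 (0.906%) and 7 (0.352%), and outside the core 6 of 2130 (0.282%) and 1 (0.0469%). All 10 genes of the full set were also past the rule in the core, each with a ratio farther from 0 there. The middle of all genes was close to 0: the median log2 ratio over all tested genes was -0.04 in members and -0.03 in the core.

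Abl1, a tyrosine kinase of cytoskeletal signalling and a gene on the list of Eph and Abl partners, had the lowest ratio. In wild-type core members it ran from 0 to 22 with a median of 10, and 294 of 296 cells had it. In knock-in core members it ran from 0 to 3 with a median of 0, and 72 of 331 had it. The levels were 10.1 and 0.269 per 10000, a log2 ratio of -4.79, and in all members 9.20 and 0.731, a ratio of -3.48. Outside the core they were 8.21 and 1.20, in CA1-like cells 6.64 and 0.525 and in granule-like cells 7.85 and 0.624. The wild-type median of the core lay above the highest knock-in core cell, and the same direction held in each of these sets. Abl1 lies at chr2:31688376-31804227 on the plus strand. Its relative Abl2 stood at 3.27 and 3.30 in the core.

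Hdc, histidine decarboxylase, which makes histamine, had the opposite pattern. It was above 0 in 2 of 296 wild-type core members, each at 1, and in all 331 knock-in core members, from 1 to 22 with a median of 10. Gm14216, a long intergenic noncoding RNA, was above 0 in 1 wild-type core member and in all 331 knock-in core members, from 1 to 26 with a median of 10. Hdc stood at 10.5 per 10000 in knock-in core cells, 8.06 in knock-in CA1-like cells and 8.32 in knock-in granule-like cells, and Gm14216 at 10.3, 7.57 and 7.75. Both were nearly absent from wild-type cells of those sets, with Hdc in 1 of 149 CA1-like and 2 of 120 granule-like cells. Both genes lie on chromosome 2, Hdc at chr2:126593667-126619299 and Gm14216 at chr2:154722352-154738451. Outside the core, 31.5% of wild-type members had Hdc, at no more than 2 per cell, and 28.8% had Gm14216.

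Sec22b, a vesicle trafficking SNARE of the secretory pathway, was lower but still present. It ran from 2 to 25 with a median of 11 in wild-type and from 0 to 14 with a median of 4 in knock-in core members, at levels of 11 and 4.76 per 10000. In CA1-like cells it stood at 7.36 and 3.73 and in granule-like cells at 8.01 and 4.65. Its log2 ratio was -1.19 in the core, -0.96 in CA1-like and -0.77 in granule-like cells.

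The other 6 higher genes of the full set were Cyp4x1, Gm17660, Ptbp3, Rab40b, Mapk14 and Slc12a8. Cyp4x1, a cytochrome P450 of the brain, was above 0 in 10.5% of wild-type and 69.8% of knock-in core members. Rab40b, a small GTPase, stood at 0.776 and 2.92 per 10000 and was above 0 in 52.7% and 97.3%. Mapk14, the p38 alpha stress kinase, stood at 1.96 and 4.87 in the core and had medians of 2 and 4 per cell. Slc12a8, a transporter of the cation-chloride cotransporter family, stood at 2.68 and 5.87 in the core. Ptbp3, an RNA-binding protein, stood at 0.216 and 1.13 in the core but at 0.965 and 1.37 in CA1-like cells, where it was not past the rule. Gm17660 stood at 0.268 and 1.73 in the core. In CA1-like and granule-like cells of the largest clusters, Gm17660 had log2 ratios of 1.91 and 1.63 and Rab40b 1.16 and 1.06, all past the rule. Slc12a8 had 0.90 and 1.35 there, and Mapk14 0.95 and 0.32. Cyp4x1 had 1.08 and 1.26, at levels under the limit of the rule. The differences of Gm17660 and Rab40b were thus not particular to the core. Slc12a8 was past the rule in granule-like cells too, and Mapk14 in the full CA1-like set, at a log2 ratio of 1.08. For each of these 6 genes the cell values of the libraries overlapped.

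A further 5 genes were past the rule as lower in the core and not in all members, and they were chosen here after their values were seen. Kcnq3, the M-current subunit that pairs with Kcnq5, stood at 5.98 and 2.46 per 10000 in the core, a log2 ratio of -1.25, with medians of 5 and 2 per cell. It stood at 11.5 and 8.66 in CA1-like and 6.68 and 5.61 in granule-like cells, ratios of -0.40 and -0.25. Luzp2, a leucine zipper protein, stood at 12.1 and 5.49 in the core with medians of 11 and 4, and at 2.69 and 1.48 in CA1-like cells. Outside the core both were nearer to equal, Kcnq3 at 7.57 and 6.67 and Luzp2 at 6.26 and 5.96. Kcnq5, the partner of Kcnq3, had 35.0 and 40.2 in the core.

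Tshz2 and Zfp12, both zinc finger genes, and Cdh18, a cadherin, were the other 3. Tshz2 was above 0 in 232 of 296 wild-type core members (78.4%) and 7 of 331 knock-in core members (2.11%), at 1.26 and 0.0765 per 10000. It is a marker of subiculum and cortex neurons, and outside the core it stood at 6.59 and 5.43. In CA1-like cells it stood at 1.40 and 0.0318 and in granule-like cells at 1.35 and 0.0378. Zfp12 was above 0 in 206 wild-type (69.6%) and 13 knock-in core members (3.93%). It stood at 0.523 and 0.106 in CA1-like and 0.357 and 0.0756 in granule-like cells, under the level limit of the rule. Cdh18 stood at 1.84 and 0.594 in the core and at 2.08 and 0.912 in CA1-like cells. Tshz2 and Cdh18 were past the rule as lower in the CA1-like and granule-like cells too, with Cdh18 at log2 ratios of -1.11 and -1.03, so their difference was not particular to the core. Tshz2 lies on chromosome 2 as well, at chr2:169633013-170071816. Zfp12 lies on chromosome 5, Cdh18 and Kcnq3 on 15, Sec22b on 3 and Luzp2 on 7. Among the other higher genes of the full set, Cyp4x1 and Ptbp3 lie on chromosome 4, that of Pigv. Gm17660 lies on chromosome 5, Rab40b on 11, Slc12a8 on 16 and Mapk14 on 17. The share of all tested genes on each chromosome is not given here.

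Of the 18 higher genes of the core, 4 were encoded by the mitochondrion: mt-Nd1 at 0.443 and 1.29 per 10000, mt-Nd2 at 0.583 and 1.38, mt-Nd4l at 0.673 and 1.71, and mt-Cytb at 0.734 and 1.77. Another 4, Gm28437, Gm28661, Gm10925 and Gm29216, are pseudogenes that lie together on chromosome 1, at chr1:24613189-24616197, and their reads may belong to mitochondrial genes of nearly the same sequence, so these values are uncertain. The other 2 were Kif6, a kinesin, at 0.419 and 1.01, and Greb1l. The median mitochondrial share per core cell was 0.010% and 0.0307% of the total. Over all cells of the libraries it was 0.123% and 0.219%, so it was higher in the knock-in library there too. The part of this difference in the other values was not tested.

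**Figure D5:**
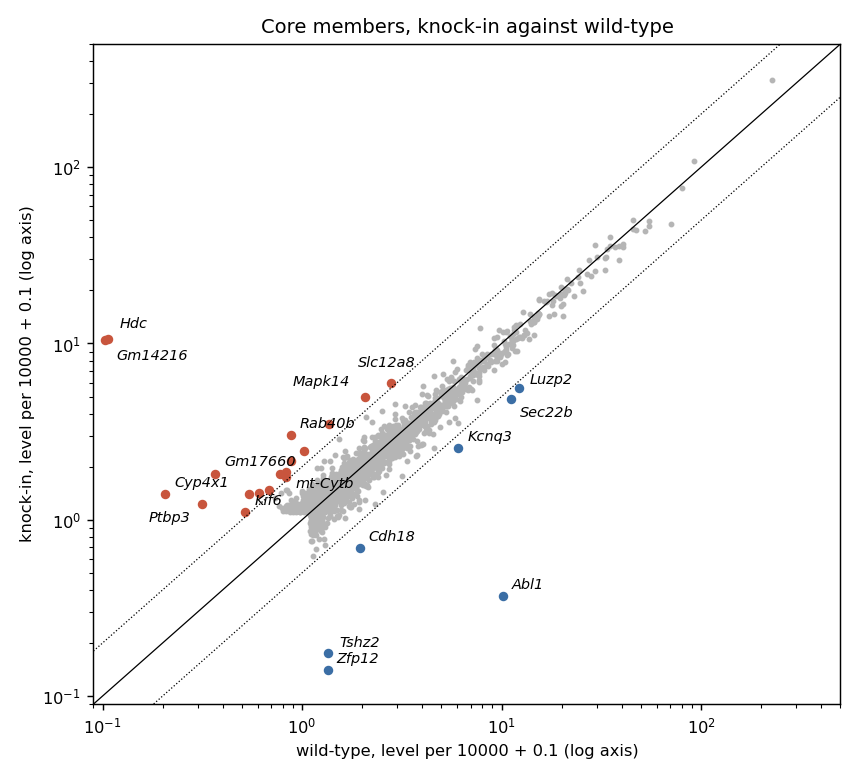
Level per 10000 plus 0.1 in core members of the knock-in library (y axis, log) against the wild-type library (x axis, log), each point a gene at 1 or more in a library; the solid line marks equality and the dotted lines a log2 ratio of 1 either way. Hdc and Gm14216 lie at the upper left, at 10.5 and 10.3 in the knock-in library, and Abl1 at the lower right, at 10.1 and 0.269.

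Cut points that divide the wild-type core cells into terciles made 6 groups over the 2 axes, with 42 to 178 knock-in cells each. Each of the 25 genotype genes of the core kept its direction in all 6 groups. The genes were chosen for their ratio in these same cells, so the shared direction is a description. Abl1 ranged from -5.59 to -4.26 over those groups, Kcnq3 from -1.72 to -1.11 and Luzp2 from -1.32 to -0.65. The size of some varied over the groups: Luzp2 was past 1 in 3 of the 6 groups, and Greb1l, with a core ratio of 1.21, was past 1 in 2 of them and ranged from 0.34 to 1.25.

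Pathway lists were read by counts and medians, beside all genes at a level of at least 0.2 per 10000. Over all 7600 such genes in members the median log2 ratio was 0.02 and 55.7% were above 0, and over 7419 in the core it was 0.02 and 53.8%. Of 7 mitochondrially encoded genes all 7 were above 0 in members, with a median of 0.85 and none past the size rule. Nuclear genes of oxidative phosphorylation had a median of 0.22 in members, 14 of 14 above 0, and 0.17 in the core, 11 of 12 above 0, with none past the rule in either. All 16 cytosolic ribosomal protein genes were above 0 in members, with a median of 0.50, and 3 of 3 in the core. In members these 3 lists stood above the middle of all genes. The same held in the full CA1-like and granule-like sets, so it was not particular to members. Nuclear oxidative phosphorylation genes had medians of 0.33 and 0.32 in those sets, and ribosomal protein genes 0.66 and 0.46. All 5 and all 10 mitochondrially encoded genes at the level limit were above 0 there, with 3 past the size rule in the CA1-like set. In members, the summed oligodendrocyte markers were 6.03 and 8.04 per 10000 and the astrocyte markers 12.1 and 14.7. The part of glia in the medians of all members was not tested. In the core both marker sums were close to equal, at 0.985 and 1.00 and at 3.77 and 3.34.

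The scaffold and vesicle lists had medians below 0. Of 16 postsynaptic scaffold genes in the core 11 were below 0, with a median of -0.17, and in members 11 of 15 with a median of -0.18, none past the rule. Dlgap2, a scaffold of the postsynaptic density, had the level 20.2 and 14.2 per 10000 in the core, and its relative Dlgap1 25.4 and 19.7. Shank1 and Camk2b were on the other side, at 6.67 and 7.08 and at 5.24 and 6.17. Of 23 vesicle and release genes in the core 14 were below 0, with a median of -0.08, and in members 21 of 24 with a median of -0.12. Sv2b, a vesicle protein, had 6.55 and 5.41 and the active zone gene Rims1 8.09 and 7.21, whereas Cplx1, a complexin, had 0.73 and 1.09. None of these genes was past the size rule. The full CA1-like and granule-like sets, not cut to their largest clusters, had medians below 0 as well. Those medians were -0.11 and -0.17 for the scaffold list and -0.15 and -0.10 for the vesicle list. Genes at a level of at least 1, as many of these are, had a median of -0.03 in the core.

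Glutamate receptor lists had medians on both sides of 0. Kainate receptor genes had a median of 0.05 over 5 genes in the core and -0.02 over 7 in members, and AMPA receptor genes 0.03 over 12 and 0.00 over 13. NMDA and delta receptor genes had -0.06 in the core, with 4 of 5 below 0, and -0.06 over 7 in members. The metabotropic receptor list had 0.03 over 6 in the core, with 3 below 0, and -0.09 over 8 in members, with 5 below 0. On it, Homer1, which links glutamate receptors to calcium stores, stood at 3.69 and 2.24 per 10000 in the core. Grik4 itself stood at 16.8 and 17.4 per 10000 in the core, Grik5 at 2.70 and 2.33 and Neto1 at 5.90 and 7.05. Cacng2, the AMPA receptor auxiliary subunit stargazin, stood at 1.66 and 1.09. Mossy fibre adhesion genes had a median of 0.01 over 17 in the core, with Nectin3 at 7.43 and 9.56 and Kirrel3 at 1.28 and 2.04. None of the genes on these lists was past the size rule.

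Of 27 potassium channel genes in the core 19 were below 0, with a median of -0.10, and Kcnq3 was the one past the rule. Of 20 sodium and calcium channel genes 11 were below 0, with a median of -0.03, and the lowest level ratio among those named was that of Cacnb4, a calcium channel beta subunit and a gene of the second axis, at 4.48 and 2.47 per 10000. Of 13 Eph receptor, ephrin and Abl genes 7 were below 0 in the core, with a median of -0.12, and in members 9 of 13 with a median of -0.20, with Abl1 the one past the rule. Epha6 stood at 38.5 and 29.6 in the core, Epha5 at 14.5 and 11, Ephb2 at 2.55 and 1.69 and Ephb1 at 3.12 and 2.28. Epha4 stood at 7.70 and 7.10, Epha7 at 8.35 and 8.61 and Epha3 at 5.71 and 6.75. In CA1-like cells Epha6 stood at 62.1 and 55.3 and Epha5 at 10.7 and 10.8. The full CA1-like and granule-like sets also had medians below 0 on these 3 lists. They were -0.08 and -0.20 for potassium channels, -0.03 and -0.17 for sodium and calcium channels, and -0.06 and -0.15 for the Eph list.

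The GPI pathway that contains Pigv showed no gene past the rule. Of 12 GPI anchor synthesis genes at the level limit in members 10 were above 0, with a median of 0.05, and in the core 7 of 13 with a median of 0.03. Pigk, a subunit of the transamidase that attaches the anchor, stood at 7.21 and 7.75 per 10000 in the core. Genes of GPI-anchored neuronal proteins had a median of -0.03 in the core, 16 of 28 below 0, and -0.01 in members, 17 of 32 below 0. Lsamp stood at 79.9 and 76.2, Opcml at 45.7 and 44.6, Cntn1 at 4.96 and 4.26 and Ly6h, a Ly6 family protein, at 1.44 and 2.77. Ntm, a relative of Lsamp, stood at 0.93 and 0.37 in the core, under the level limit of the rule, and at 9.0 and 9.15 in all members. These are transcript levels and say nothing of the amount of protein at the surface.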

How the data were processed

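The authors deposited 1 table of whole-number scores for 30223 genes and 15930 cells; its name marks the values as corrected for depth per cell, and the totals per cell lie in a narrow band, so they were treated as scores and not as counts. Seurat 3.0.0 and the build GRCm38 are named, per the submitters' processing notes. The aligner, the cell filter and any doublet removal are not given in the sources used here. Genotypes came from the sample labels and column prefixes.

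The members, gene lists and cluster names were chosen with earlier results of these data known. Cells were clustered with scanpy 1.11.5 (2000 variable genes, 30 components, 15 neighbours, resolution 1), and doublets were marked with Scrublet but not removed. A cluster took a name from at least 3 fixed markers found in at least 25% of its cells at 1.5 times the level elsewhere. Genes were named by a fixed rule: Pigv, Abl1, Hdc, Gm14216, Sec22b and Gm17660, those past the size rule in members, the leading genes against the neighbouring sets, the most variable genes, and list genes at 0.5 per 10000 or more. A few genes that this rule names are not reported here. Axes are principal components of standardized log values of core members, fitted on wild-type cells. Positions are those of GENCODE M21. The script that applies the size rule was checked on simulated data, which gives no error rate for the rule between these libraries. Precision is limited by the number of cells, and no model was fitted across genes since each genotype had 1 library.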

Additional observations from a re-analysis of the deposited data

How the results depend on the processing

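Adding 1 instead of 0.1 before the ratio left 2 higher and 1 lower genes in members, as 6 of the 8 higher genes and Sec22b no longer reached the threshold. A level minimum of 0.5 gave 6 lower genes, and no level minimum gave 14 higher and 11 lower. Requiring at least 3 of the 6 other markers gave 7 lower genes against members' 2, the core gave 18 and 7, and members outside the core, a set added after seeing the data, gave 1 lower. The core kept all 8 higher and both lower genes. The share of the libraries that was members was 6.86% and 6.32% with Grik4 at 3 or more, 10.5% and 9.40% with Grik4 at 1 or more, 5.30% and 4.70% with at least 3 markers, and 4.17% and 3.75% in the core. Against the neighbouring sets, lower genes numbered 8 with Grik4 at 3 or more, 1 with Grik4 at 1 or more and 27 with at least 3 markers. The core against the full sets gave 99 higher and 44 lower, all members against the largest clusters 89 and 14, and the core against those clusters 90 and 44, of which 39 were among the 57. The last 2 settings were added after seeing the data. Of the alternatives for named genes 114 kept direction and side of the threshold, 13 were no longer past it and 5, all of Pigv, moved, once with a change of sign. Thinning each cell to 1000 kept 7 of the 8 higher genes and both lower ones. Subtracting the median ratio moved all ratios by 0.04. The oligodendrocyte marker median of members was 0.40 as reported and 0.06 with Grik4 at 1 or more, and the astrocyte one was 0.25 and, with at least 3 markers, -0.15. No paired analysis was possible because each genotype had 1 library, and for the same reason no replicate could be left out. Corrected values hide raw depth, so absence of a gene at or below a few cells cannot be told from shallow sampling.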

Other observations

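Some genes that were not past the size rule in core members are given here beside the neighbouring sets, and none of the differences between sets was tested. Mndal, an interferon-inducible gene used as a CA3 marker, stood at 1.03 and 0.52 per 10000 in wild-type and knock-in core members, a log2 ratio of -0.86, and at or below 0.0475 in CA1-like and granule-like cells of the largest clusters, too low for a ratio. Homer1 had a ratio of -0.69 in the core, -0.11 in CA1-like and 0.03 in granule-like cells. Tspan18, a tetraspanin, had 0.67 in the core and -0.22 in granule-like cells, and was at or below 0.0204 per 10000 in CA1-like cells. Ly6h had 0.90 in the core, 0.51 in CA1-like and 0.89 in granule-like cells. Malat1 had 0.46 in the core, 0.67 in CA1-like and 0.48 in granule-like cells, and was thus higher in the knock-in library in each set.

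At the high end of the third axis of the core were Malat1, Luc7l2 and Pnn, genes of nuclear RNA and its handling. At the low end were the long synaptic genes Dlg2, Nlgn1, Csmd1 and Dlgap1. Neither end held only such genes, with Dync1i2, Ogt and Etnk1 at the high end and Gm26917 and Lncpint at the low end. In knock-in cells, split by a score that weights these genes and so with no independence from it, Malat1 stood at 254.5 per 10000 in the low and 386.1 in the high tercile, and Nlgn1 at 40.5 and 30.3.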
